A study of Mus musculus with 24 samples.

Results

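Endometriotic lesions were compared with the uterus of mice carrying the disease, 3 months after surgery. The comparison uses 8 of the 24 RNA sequencing libraries of the series, 4 of lesions (ectopic) and 4 of eutopic uterus, chosen by group label. The whole series also holds sham-operated uterus at 3 months and the same 3 tissues at 1 month, 4 libraries a group. All mice had a mixed C57BL/6 and SV129 background, had surgery at 8 weeks of age and were mated afterwards, and tissue was taken on pregnancy day 3.5. Lesion and eutopic libraries at 3 months come from mice labelled subfertile; both tissues at 1 month and all sham mice are labelled fertile. Lesions are labelled Pgrcre/+Rosa26mTmG/+ and eutopic and sham uterus Rosa26mTmG/+, where Pgr-Cre is a Cre recombinase expressed from the progesterone receptor gene and mTmG a membrane fluorescent reporter. The text of the series instead gives the Cre genotype to the mice with endometriosis, and which source is right is not known. By the sample labels, genotype and tissue cannot be told apart. The labels do not tie a library to an animal, so p-values measure the spread between these libraries, part of which may be technical.

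In endometriosis, tissue like the lining of the uterus grows outside it, commonly with inflammation, new matrix and altered responses to ovarian steroids. In the receptive mouse uterus progesterone acts through its receptor Pgr, which induces the hedgehog ligand Ihh in the epithelium and the transcription factor Hand2 in the stroma, and this axis restrains estrogen action in the epithelium. Uterine glands, marked by the transcription factor Foxa2, secrete products needed for implantation, and HOX genes of the A and D clusters mark the position of the uterus along the reproductive tract.

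The lesion libraries did not hold one kind of tissue. Gene levels are given as CPM, read counts relative to the TMM-scaled library size, and the level of a list is the sum over its genes. The skeletal muscle list stood at 104, 71093, 23108 and 12443 CPM in lesion libraries 1 to 4 and at 136 to 191 CPM in the eutopic libraries. Steroid synthesis genes summed to 30582, 494, 129 and 159 CPM against 117 to 158 CPM, and genes of ovarian granulosa cells and oocytes to 2951, 92.9, 104 and 102 CPM against 74.7 to 82.7 CPM. Adipocyte genes summed to 578, 11255, 2976 and 1284 CPM against 90.2 to 307 CPM. Lesion library 1 thus carried ovarian transcripts at a high level and a summed muscle level below that of eutopic uterus. Libraries 2 to 4 carried muscle transcripts, most of all library 2. The adipocyte sum exceeded eutopic uterus in all 4 lesion libraries, least in library 1 and most in library 2. Adipoq, of that list, was at 7.39, 312, 46.1 and 11.4 CPM in lesions 1 to 4 and 0.569 to 12.4 CPM in eutopic uterus. Lesions 1 and 4 lay inside that range.

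Uterine markers separated the same libraries. Hoxa10 and Hoxa11, which pattern the uterus, were each under 1 CPM in lesion library 1, against 389.8 to 420.2 and 250.2 to 303 CPM in eutopic uterus. The 16 Müllerian patterning genes, named for the duct that forms the uterus, summed to 378, 165, 868 and 476 CPM in lesions 1 to 4 and to 1383 to 1559 CPM in eutopic uterus. Luminal epithelium genes summed to 138, 57.5, 1255 and 852 CPM and 1353 to 1779 CPM. The markers of uterine tissue were therefore best kept in lesion libraries 3 and 4, were low in library 2, and were near 0 for the A-cluster HOX genes in library 1, whose data go against its label as a uterine lesion. The tissue of lesion library 1 is not named here, and results are given with and without it.

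**Figure D1:**
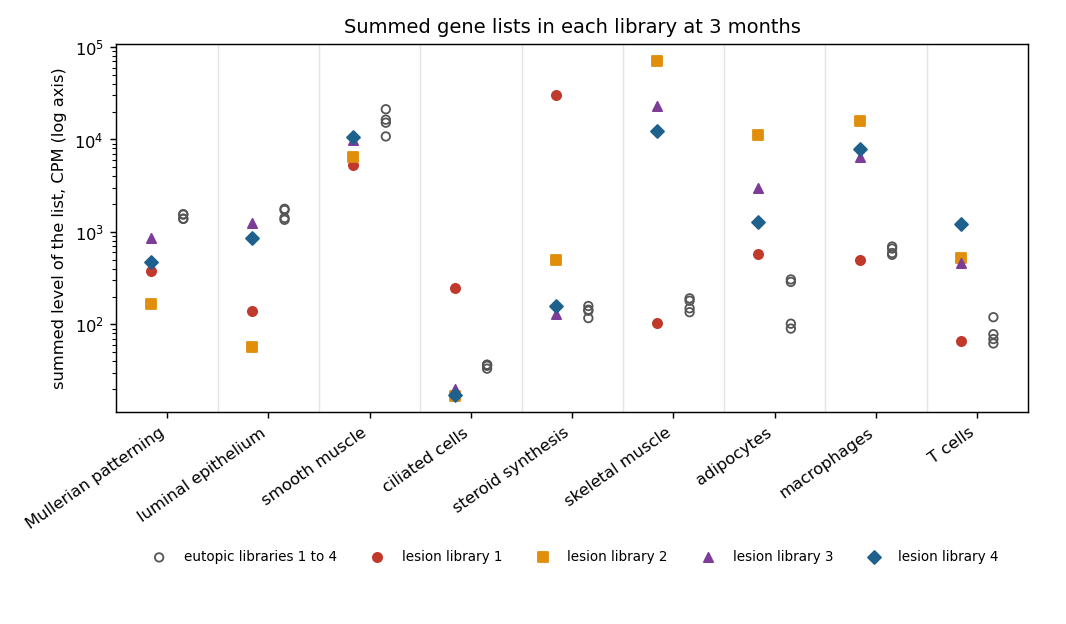
Summed level of 9 gene lists (log axis, CPM) in each of the 4 lesion libraries (filled symbols) and the 4 eutopic libraries (open circles) at 3 months. Steroid synthesis and ciliated cell genes stand highest in lesion library 1, and skeletal muscle, adipocyte and macrophage genes in lesion library 2.

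Depth did not separate the groups: lesions held 52113101 to 54449764 counts a library and eutopic uterus 45933499 to 52910244. Taken over genes, which do not replicate each other, log2 CPM correlated by 0.975 between lesion libraries 3 and 4. Lesion library 1 reached 0.837 to 0.859 with the other lesions and 0.886 to 0.904 with eutopic uterus. With eutopic uterus lesion libraries 2, 3 and 4 reached 0.848 to 0.856, 0.902 to 0.917 and 0.875 to 0.893. Library 2, not library 1, was thus least like eutopic uterus by this measure. The median SD of log2 CPM over genes was 0.556 in lesions at 3 months, 0.254 in eutopic uterus at 3 months, 0.272 in lesions at 1 month and 0.302 in sham uterus at 3 months. Lesions at 3 months were therefore the most spread of these groups, and a test that pools the spread of all groups gives them small p-values.

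Of 22249 genes tested with edgeR on all 24 libraries, 9013 (40.5%) were called at an adjusted p under 0.05, 5202 higher (23.4%) and 3811 lower (17.1%) in lesions. When the spread came from the 8 compared libraries alone, 3267 of 20005 genes were called (16.3%), 1889 higher (9.44%) and 1378 lower (6.89%). Both fits called 1884 genes higher (8.47%) and 1366 lower (6.14%). Without lesion library 2, 7808 of 22633 genes were called (34.5%). Without lesion library 1, 10862 of 22700 were called (47.9%), 5708 higher (25.1%) and 5154 lower (22.7%). Lesion libraries 3 and 4 against eutopic uterus gave 9452 of 23263 calls (40.6%), 4885 higher (21%) and 4567 lower (19.6%), and lesion library 1 alone, a lone sample assumed to vary like the other groups, gave 8595 of 25155 calls (34.2%), 4533 higher (18%) and 4062 lower (16.1%). Over all tested genes the log2 fold change had a median of 0.04, and ± after a fold change is its standard error. Each count of list genes below is to be read beside these shares. With all libraries 23.4% of genes rose and 17.1% fell, and in the 8 libraries 9.44% and 6.89%.

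Every lesion library lay above every eutopic library for 2257 of the 22249 genes (10.1%) and below for 3065 (13.8%). Called genes without overlap numbered 2147 higher (9.65%) and 2787 lower (12.5%). 886 genes were called higher (3.98%) and 1033 lower (4.64%) in each of 6 fits: all 24 libraries, the 8 libraries, without lesion library 1, without lesion library 2, lesion libraries 3 and 4 only, and lesion library 1 only. The difference of each list from eutopic uterus, library by library, is drawn in the heat map of gene lists. Bulk RNA cannot tell fewer cells of a type from less RNA per cell, and this holds for every level below.

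**Figure D2:**
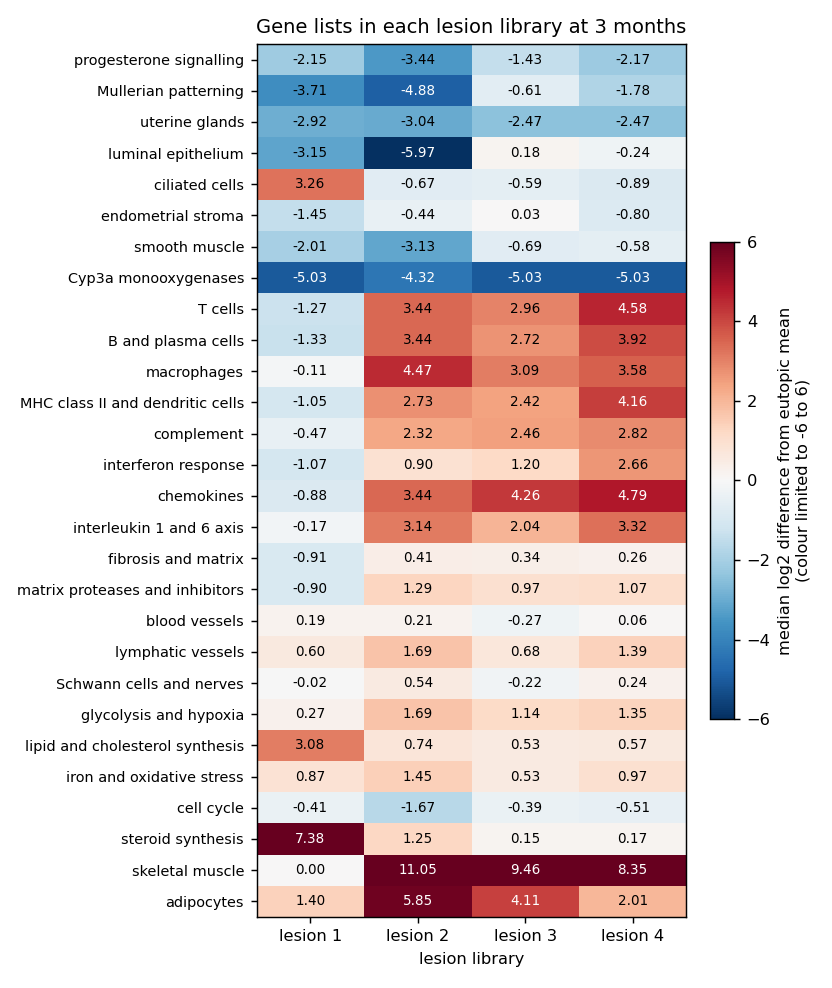
Median over the tested genes of each list of the log2 CPM difference from the eutopic mean (colour and printed value; blue lower, red higher), for each lesion library at 3 months. The T cell, B cell, macrophage, MHC class II, interferon and chemokine lists are below 0 in lesion library 1 and above 0 in libraries 2 to 4, while progesterone signalling, Müllerian patterning, uterine gland and Cyp3a lists are below 0 in all 4 libraries; values of genes at 0 counts depend on the small count added before the logarithm.

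Did the lesions keep the progesterone program of the uterus? Of 24 progesterone signalling genes, 15 fell and 2 rose, with a median log2 fold change of -1.82 beside 0.04 over all genes. In the 8 libraries alone 12 fell and neither rise was called, without lesion library 1 17 fell, and lesion libraries 3 and 4 gave 16 falls. 9 of the 24 were lower in each of the 6 fits, and 15 lay below eutopic uterus in all 4 lesion libraries. The list fell in lesions 3 and 4 as it did in the whole group. Uterine markers were best kept in these 2 libraries, but other uterine lists fell there too. Müllerian patterning genes gave 10 falls of 13, gland genes 7 of 13 and smooth muscle genes 7 of 15, beside 19.6% of all genes. The part of a lower uterine content in the progesterone result was not tested.

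Pgr (ENSMUSG00000031870.17), the progesterone receptor, was at 7.09, 14.5, 161 and 60.8 CPM in lesion libraries 1 to 4 and at 273, 212, 192 and 198 CPM in eutopic libraries 1 to 4. All 4 lesion libraries lay below eutopic uterus, library 3 closest to it and library 1 farthest. The log2 fold change was -1.85 ± 0.59 (edgeR adjusted p = 0.017), and -1.01 in lesion libraries 3 and 4 (adjusted p = 0.048). By the sample labels only the lesions carry the Cre allele, which is expressed from this very gene. For the Pgr level, genotype and tissue therefore cannot be told apart. In the 8 libraries alone the adjusted p was 0.17, and without lesion library 3 the value was -2.99. Sham uterus at 3 months held 291 ± 151 CPM (SD, n = 4).

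Hand2 (ENSMUSG00000038193.5), the stromal factor downstream of Pgr, was at 0.842, 8.08, 22.01 and 15.4 CPM in lesion libraries 1 to 4 and at 72.1, 92.9, 80.5 and 85.1 CPM in eutopic libraries 1 to 4. Every lesion was below eutopic uterus, with library 1 under 1 CPM. It fell by a log2 fold change of -2.84 ± 0.51 (edgeR adjusted p = 0.00026; 0.045 in the 8 libraries). Ihh (ENSMUSG00000006538.13), the epithelial ligand, was at 35.2, 0.559, 8.42 and 4.69 CPM in lesion libraries 1 to 4 and at 45.04, 38.7, 51.02 and 48.9 CPM in eutopic libraries 1 to 4. The lesions were all lower, but library 1 stood close to eutopic uterus and library 2 near 0. Its log2 fold change was -1.91 ± 0.66 (edgeR adjusted p = 0.027), became -3.32 without lesion library 1, and lost the call in the 8 libraries (adjusted p = 0.19) and without lesion library 3 or 4 (0.063 and 0.075).

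Hsd11b2 (ENSMUSG00000031891.7), which inactivates glucocorticoids, was at 16.5, 3.1, 29.7 and 8.39 CPM in lesion libraries 1 to 4 and at 259, 252, 197 and 252 CPM in eutopic libraries 1 to 4. Its lesion libraries were all far below eutopic uterus. The log2 fold change was -4.06 ± 0.46 (edgeR adjusted p = 4.1e-06; 0.0098 in the 8 libraries), and -4.68 without lesion library 3. Il13ra2, a decoy receptor for interleukin 13, was at 3.11, 0.163, 4.61 and 0.803 CPM in lesion libraries 1 to 4 and at 47.4, 44.4, 44.8 and 49.9 CPM in eutopic libraries 1 to 4. It too was lower in every lesion, with a log2 fold change of -4.42 ± 0.71 (edgeR adjusted p = 0.0001).

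Sox17, an epithelial and endothelial transcription factor, ran from 11.97 to 74.03 CPM in lesions and 192 to 234 CPM in eutopic uterus and changed by -2.75 ± 0.43 on the log2 scale, and by -3.63 without lesion library 3. Gata2, a factor upstream of Pgr that was chosen after its values were seen, ran from 12.2 to 108 and 283 to 363 CPM and changed by -2.63 ± 0.47, and by -3.25 without lesion library 3. Neither gene overlapped between the groups, and each was called by edgeR in the fit of 24 and in that of 8 libraries (largest adjusted p = 0.041).

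The 2 progesterone list genes called higher rested on lesion library 1. Bmp2 (ENSMUSG00000027358.7), a growth factor of decidualization, was at 42.2, 8.99, 9.47 and 11.7 CPM in lesion libraries 1 to 4 and at 9.39, 6.21, 8.3 and 6.61 CPM in eutopic libraries 1 to 4. Its value of 1.25 ± 0.35 (edgeR adjusted p = 0.0083) became 0.40 without that library (adjusted p = 0.08). Fkbp5, a steroid receptor co-chaperone named after its values were seen, stood at 1066, 59.5, 47.1 and 77.1 CPM in lesion libraries 1 to 4 and at 53.9, 62.3, 60.3 and 48.3 CPM in eutopic libraries 1 to 4. Its value of 2.48 ± 0.68 (edgeR adjusted p = 0.007) became 0.12 without lesion library 1 (adjusted p = 0.71).

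**Figure D3:**
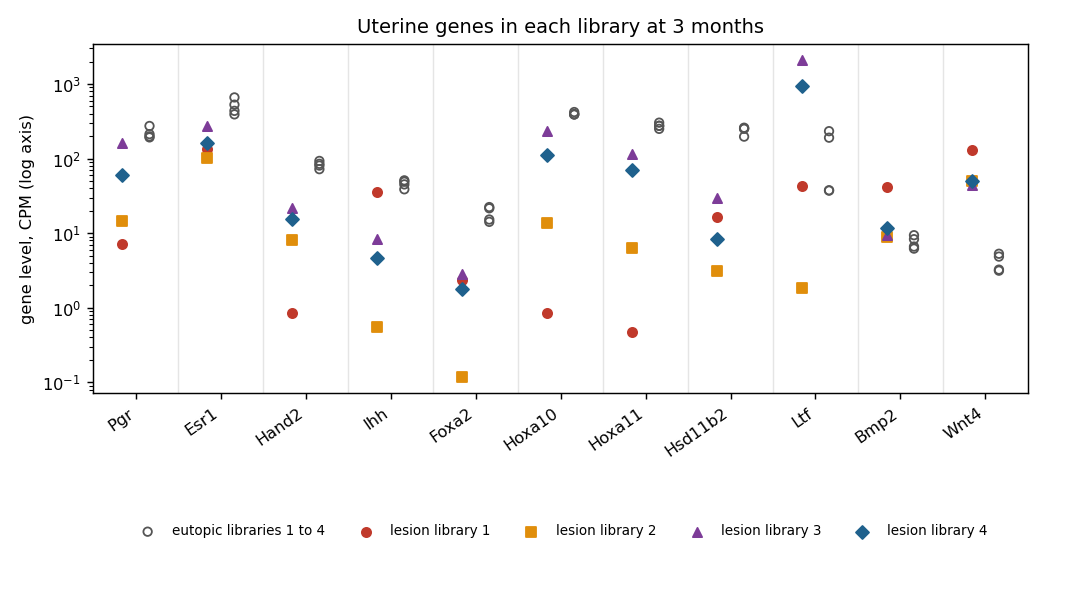
Level of 11 uterine genes (log axis, CPM) in each lesion library (filled symbols) and each eutopic library (open circles) at 3 months. Pgr, Esr1, Hand2, Ihh, Foxa2, Hoxa10, Hoxa11 and Hsd11b2 lie below eutopic uterus in all 4 lesions, Wnt4 lies above in all 4, and Ltf and Bmp2 overlap.

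Esr1 and Gper1 fell, while estrogen-linked genes were mixed. Esr1 (ENSMUSG00000019768.17), estrogen receptor alpha, was at 134, 102, 272 and 159.9 CPM in lesion libraries 1 to 4 and at 660.0, 436, 528 and 391 CPM in eutopic libraries 1 to 4. All lesions were lower, library 3 least so, with a log2 fold change of -1.59 ± 0.27 (edgeR adjusted p = 0.00014; 0.021 in the 8 libraries). Gper1, a membrane estrogen receptor, was at 1.61, 0.885, 1.05 and 0.528 CPM in lesion libraries 1 to 4 and at 4.09, 5.44, 7.53 and 5.58 CPM in eutopic libraries 1 to 4, also without overlap, and changed by -2.47 ± 0.34 (edgeR adjusted p = 2.8e-05). Ltf, lactotransferrin, a classic estrogen-induced product of uterine epithelium, was at 42.6, 1.82, 2104 and 948 CPM in lesion libraries 1 to 4 and at 191, 37.2, 37.6 and 233 CPM in eutopic libraries 1 to 4. Lesion libraries 3 and 4 were above every eutopic library, library 2 below every one, and library 1 within their range. The log2 fold change of 2.64 ± 1.15 did not pass (edgeR adjusted p = 0.072). It passed without lesion library 1 (3.04, adjusted p = 0.029) or lesion library 2 (3.04, adjusted p = 0.015), and with DESeq2 (adjusted p = 0.02). Of 17 estrogen signalling genes tested, 7 rose and 3 fell, against 1 and 3 of 14 tested in the 8 libraries. The falls with all libraries were near the 17.1% of all genes, and the rise in the 8 libraries near 9.44%.

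Genes of implantation also divided. Of 15 tested, 4 rose, near the 23.4% of all genes, and 5 fell, beside 17.1% of all genes. In the 8 libraries 2 rose and 3 fell, beside 9.44% and 6.89%. Msx1, a homeobox gene of uterine receptivity, was at 2.3, 5.78, 51.6 and 31.1 CPM in lesion libraries 1 to 4 and at 219.5, 213, 272 and 265 CPM in eutopic libraries 1 to 4, and lesion libraries 1 and 2 held the least of it. It fell by a log2 fold change of -3.41 ± 0.59 (edgeR adjusted p = 0.00019), -4.21 without lesion library 3. Lpar3, a lysophosphatidic acid receptor that times implantation, ran from 0.815 to 12.1 CPM in lesions and 32.2 to 56.7 CPM in eutopic uterus and changed by -3.25 ± 0.60 (edgeR adjusted p = 0.00034), or -4.21 without lesion library 3. Lifr, the receptor of the implantation cytokine Lif, was at 145, 119, 78.2 and 75.2 CPM in lesion libraries 1 to 4 and at 44.3, 34.7, 43.3 and 35.4 CPM in eutopic libraries 1 to 4. It was higher in every lesion, with a log2 fold change of 1.40 ± 0.27 (edgeR adjusted p = 0.00048; 0.01 in the 8 libraries). Lif itself was at 0.805, 3.87, 10.1 and 8.48 CPM in lesion libraries 1 to 4 and at 12.3, 16.8, 3.71 and 2.88 CPM in eutopic libraries 1 to 4, the groups overlapped, and the difference of -0.62 ± 0.56 did not pass (edgeR adjusted p = 0.39).

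Most gland genes were low in the lesions. Of 13 uterine gland genes 9 fell and 2 rose, with a median log2 fold change of -4.41; the 8 libraries gave 5 and 1 of 11 tested, and lesion libraries 3 and 4 gave 7 and 1. Foxa2 (ENSMUSG00000037025.12) was at 2.34, 0.116, 2.84 and 1.78 CPM in lesion libraries 1 to 4 and at 22.4, 14.2, 21.6 and 15.2 CPM in eutopic libraries 1 to 4. Its lesion libraries were all under 3 CPM, and its log2 fold change was -3.37 ± 0.70 (edgeR adjusted p = 0.00084; 0.027 in the 8 libraries).

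Cxcl15, a chemokine secreted by the glands, was at 0.262, 0.0466, 4.25 and 0.867 CPM in lesion libraries 1 to 4 and at 87.5, 58.4, 79.9 and 61.9 CPM in eutopic libraries 1 to 4. Wfdc3, a gene of the whey acidic protein family of protease inhibitors, was at 0.693, 0.233, 0.397 and 0.507 CPM in lesion libraries 1 to 4 and at 9.44, 14.1, 8.92 and 7.02 CPM in eutopic libraries 1 to 4. Both were lower in every lesion, and lesion library 3 kept more Cxcl15 than the others. Their log2 fold changes were -5.72 ± 0.83 (edgeR adjusted p = 4.0e-05; -7.50 without lesion library 3) and -4.42 ± 0.53 (adjusted p = 7.3e-06). The summed level of the gland list was nonetheless 3731, 249, 397 and 259 CPM in lesions 1 to 4 against 649 to 697 CPM, and in library 1 Aldh1a1, a retinaldehyde dehydrogenase also made outside glands, held 1784 CPM of it. Aldh1a1 was at 1784, 189, 107 and 65.4 CPM in lesion libraries 1 to 4 and at 37.8, 21.7, 27.9 and 17.6 CPM in eutopic libraries 1 to 4.

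Luminal epithelium genes followed the library. Of 16, 5 fell and 1 rose, and 2 fell in the 8 libraries. Krt8, a keratin of simple epithelia, was at 23.1, 3.68, 156 and 133 CPM in lesion libraries 1 to 4 and at 137, 109.5, 156 and 144 CPM in eutopic libraries 1 to 4. Epcam, an epithelial adhesion molecule, was at 25.9, 5.33, 144 and 88.3 CPM in lesion libraries 1 to 4 and at 142, 136, 117 and 129 CPM in eutopic libraries 1 to 4. For both genes lesion library 3 lay above every eutopic library and libraries 1 and 2 below; library 4 lay within the eutopic range for Krt8 and below it for Epcam. Neither log2 fold change passed, -0.79 ± 0.61 for Krt8 (edgeR adjusted p = 0.31) and -0.99 ± 0.57 for Epcam (adjusted p = 0.17), although Epcam passed without lesion library 3 (-1.71, adjusted p = 0.023).

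Calb1, the calcium-binding protein calbindin-D28K, was at 4.38, 0.652, 68.6 and 13.8 CPM in lesion libraries 1 to 4 and at 345, 387, 584 and 607 CPM in eutopic libraries 1 to 4. S100g, calbindin-D9k, was at 0.168, 0.303, 17.6 and 4.02 CPM in lesion libraries 1 to 4 and at 75.999, 246, 179.8 and 200.5 CPM in eutopic libraries 1 to 4. Lesion library 3 held the most of each among lesions and still lay below all eutopic libraries. The fitted differences were, in log2, -4.46 ± 0.86 (edgeR adjusted p = 0.00045; -6.25 without lesion library 3) and -4.99 ± 1.09 (adjusted p = 0.0013; -6.87 without lesion library 3).

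Ciliated cell genes rose only through lesion library 1. Of 11 tested, 5 rose with all libraries, and 4 fell without it, when the rises were no longer called; in the 8 libraries they were not called either. Summed, the list stood at 246, 16.9, 19.96 and 17.4 CPM in lesions 1 to 4 and 33.2 to 36.6 CPM in eutopic uterus.

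The genes that pattern the uterus were low in graded fashion. Of 13 Müllerian patterning genes tested, 10 fell and 1 rose, and 10 of 13 lay below and 1 above eutopic uterus in all 4 lesions. In the 8 libraries only 1 fell and 1 rose of 12 tested, near the shares over all genes. Hoxa10 (ENSMUSG00000000938.12) was at 0.842, 13.5, 232 and 111 CPM in lesion libraries 1 to 4 and at 390.2, 395, 389.8 and 420.2 CPM in eutopic libraries 1 to 4, and Hoxa11 (ENSMUSG00000038210.11) at 0.468, 6.38, 115 and 71.3 CPM in lesion libraries 1 to 4 and at 250.2, 275, 275 and 303 CPM in eutopic libraries 1 to 4. Eutopic libraries were nearly level while lesions spread from under 1 CPM in library 1 to more than 100 CPM in library 3.

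Hoxa10 changed by -2.16 ± 0.78 (edgeR adjusted p = 0.032; 0.25 in the 8 libraries) and Hoxa11 by -2.51 ± 0.79 (adjusted p = 0.015; 0.19). Leaving out lesion library 2 or 4, or eutopic library 2, 3 or 4, ended the call of Hoxa10, with an adjusted p of at most 0.08, and without lesion library 3 the values were -3.25 and -3.40. Hoxd9, of the D cluster, was at 24.9, 11.9, 33.6 and 23.5 CPM in lesion libraries 1 to 4 and at 82.9, 83.8, 78.3 and 92.6 CPM in eutopic libraries 1 to 4. It was more even over the lesions than Hoxa10 or Hoxa11, with a log2 fold change of -1.84 ± 0.22 (edgeR adjusted p = 7.1e-06; 0.0093 in the 8 libraries).

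Wnt4 (ENSMUSG00000036856.5), a Wnt ligand of duct formation and decidualization, moved the other way. It was at 129, 50.6, 43.96 and 49.6 CPM in lesion libraries 1 to 4 and at 3.14, 5.29, 3.24 and 4.85 CPM in eutopic libraries 1 to 4. The lowest lesion stood far above the highest eutopic library, which reached 5.29 CPM. The log2 fold change was 4.05 ± 0.61 (edgeR adjusted p = 6.1e-05; 0.0038 in the 8 libraries), and 3.54 without lesion library 1, which held the most.

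Cyp3a monooxygenases, which oxidize steroids and drugs, were at or near 0 in every lesion. Of 8 listed genes 5 could be tested and all 5 fell; in the 8 libraries 4 of 4 tested fell. Cyp3a59 (ENSMUSG00000061292.11) had 0 counts in all 4 lesion libraries and 5.01, 11.6, 10.9 and 6.84 CPM in eutopic libraries 1 to 4. Against a floor of 3 counts over the lesion group, it was at least 549-fold lower in lesions (edgeR adjusted p = 2.3e-06). Cyp3a57 was at 0, 0.0233, 0.0993 and 0.0423 CPM in lesion libraries 1 to 4 and at 7.17, 4.73, 12.3 and 12.9 CPM in eutopic libraries 1 to 4, a log2 fold change of -7.73 ± 0.78 (adjusted p = 1.6e-06; -8.63 without lesion library 3). These genes are close paralogs, and how reads shared between copies were counted is not given in the sources used here.

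Several further genes were low in every lesion with a wide gap to eutopic uterus. Nptx1 (ENSMUSG00000025582.5), a secreted neuronal pentraxin, was at 1.5, 1.91, 1.89 and 1.06 CPM in lesion libraries 1 to 4 and at 55.6, 42.5, 41.4 and 37.7 CPM in eutopic libraries 1 to 4. Gap43, a protein of growing nerve endings, was at 0.487, 0.908, 1.49 and 0.381 CPM in lesion libraries 1 to 4 and at 17.1, 24.7, 21.6 and 30.01 CPM in eutopic libraries 1 to 4. Pllp, a membrane protein named plasmolipin, was at 1.22, 1.72, 3.04 and 0.846 CPM in lesion libraries 1 to 4 and at 38.8, 56.01, 58.6 and 69.9 CPM in eutopic libraries 1 to 4. All 3 were within a narrow range over the lesions despite their different tissue content. Their log2 fold changes were -4.80 ± 0.34 (edgeR adjusted p = 3.9e-08), -4.83 ± 0.43 (adjusted p = 5.5e-07) and -5.03 ± 0.50 (adjusted p = 1.6e-06), and all 3 passed in the 8 libraries (largest adjusted p = 0.0037).

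Slc5a11, a sodium-coupled inositol transporter, was at 0.0562, 0.163, 1.47 and 0.296 CPM in lesion libraries 1 to 4 and at 21.1, 22.6, 45.04 and 44.95 CPM in eutopic libraries 1 to 4. Slco4c1, an organic anion transporter, was at 0.524, 0.116, 1.53 and 0.233 CPM in lesion libraries 1 to 4 and at 28.97, 17.7, 33.7 and 25.8 CPM in eutopic libraries 1 to 4. Lesion library 3 held the most of both, below every eutopic library. In log2 units they differed by -6.06 ± 0.81 (edgeR adjusted p = 2.0e-05) and -5.45 ± 0.59 (adjusted p = 3.1e-06), and -7.61 and -6.47 without lesion library 3. Sbspon, a matrix protein with thrombospondin and somatomedin domains, ran from 0.722 to 4.45 CPM in lesions and 54.4 to 85.2 CPM in eutopic uterus, a log2 fold change of -5.12 ± 0.63 (adjusted p = 9.9e-06), or -6 without lesion library 3. Ano2, a calcium-activated chloride channel, ran from 0.127 to 0.755 and 6.86 to 30.2 CPM and changed by -5.78 ± 0.96 (adjusted p = 0.00014), or -6.69 without lesion library 3.

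Hdc, the enzyme that makes histamine, was at 61.4, 25.8, 85.04 and 38.7 CPM in lesion libraries 1 to 4 and at 331, 404, 414 and 457 CPM in eutopic libraries 1 to 4. Pla2g10, a secreted phospholipase that frees fatty acids for prostaglandins, was at 0.15, 0, 0.397 and 0.0634 CPM in lesion libraries 1 to 4 and at 16.8, 35.6, 30.8 and 35.9 CPM in eutopic libraries 1 to 4. Hpgd, which breaks prostaglandins down, was at 29.4, 27.3, 29.97 and 14.1 CPM in lesion libraries 1 to 4 and at 73.9, 58.9, 87.1 and 56.4 CPM in eutopic libraries 1 to 4. None of the 3 overlapped, and Pla2g10 was near 0 in every lesion. The log2 fold changes were -2.93 ± 0.39 (edgeR adjusted p = 2.0e-05), -7.55 ± 1.01 (adjusted p = 2.1e-05; -8.59 without lesion library 3) and -1.45 ± 0.24 (adjusted p = 0.00013). Of 15 prostaglandin genes 6 rose and 4 fell, 1 and 3 in the 8 libraries. Ptgs2, an enzyme that starts prostaglandin synthesis, was among the rises.

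Other genes were high in every lesion, library 1 included. Grem1 (ENSMUSG00000074934.4), a secreted antagonist of bone morphogenetic proteins, was at 32.3, 26.5, 22.4 and 95.02 CPM in lesion libraries 1 to 4 and at 0.328, 0.581, 0.251 and 0.302 CPM in eutopic libraries 1 to 4. F10, coagulation factor X, was at 10.6, 93.1, 50.8 and 81.05 CPM in lesion libraries 1 to 4 and at 0.135, 0.104, 0.0965 and 0.586 CPM in eutopic libraries 1 to 4. The lowest lesion exceeded the highest eutopic library for both. Their log2 fold changes were 6.91 ± 0.77 (edgeR adjusted p = 3.6e-06; 6.204 without lesion library 4) and 7.96 ± 0.82 (adjusted p = 1.9e-06; 9.01 without eutopic library 4).

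Angptl1, a secreted angiopoietin-like protein, ran from 13.2 to 36.9 CPM in lesions and 0.228 to 0.54 CPM in eutopic uterus, a log2 fold change of 6.27 ± 0.72. Apol6, an apolipoprotein L family member, ran from 16.9 to 150.0 and 0.291 to 1.06 CPM and changed by 6.64 ± 0.78, or 6.04 without lesion library 4. Sfrp1, a secreted Wnt antagonist, was at 133, 364, 213 and 420.5 CPM in lesion libraries 1 to 4 and at 23.2, 26.4, 21.4 and 17.8 CPM in eutopic libraries 1 to 4. It rose by a log2 fold change of 3.67 ± 0.38 (edgeR adjusted p = 2.0e-06), and each of these 3 genes passed in the 8 libraries (largest adjusted p = 0.0049).

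**Figure D4:**
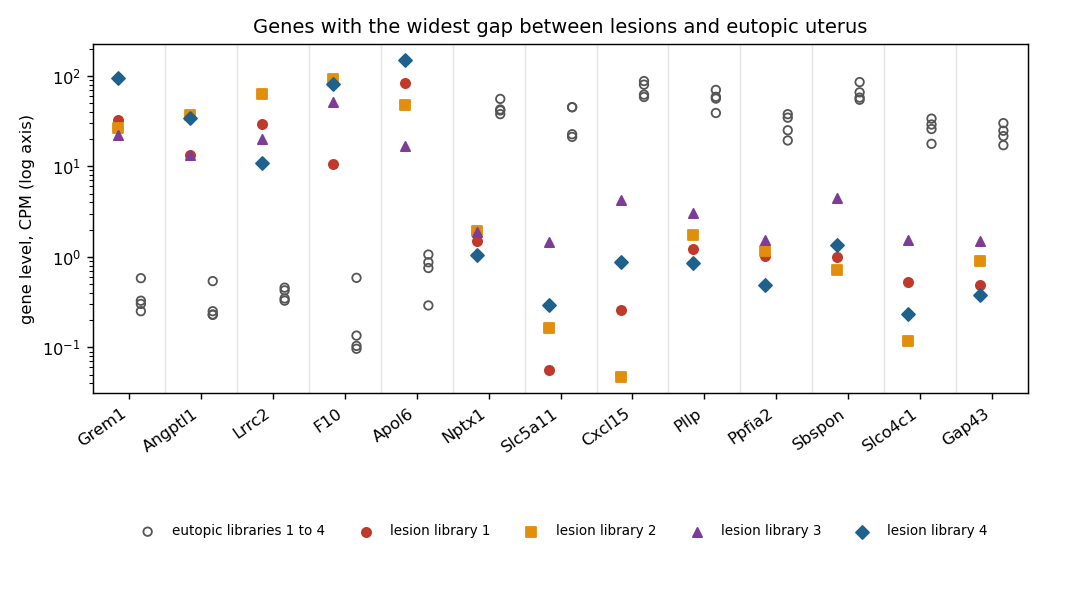
Genes chosen for the widest gap between the groups (log axis, CPM), 5 higher and 8 lower in lesions, in each lesion library (filled symbols) and eutopic library (open circles) at 3 months. The choice used these values, so the absence of overlap is a description; the muscle genes Myom2 and Ryr1, also chosen, are left out of the plot.

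T cell, B cell and macrophage genes were high by their sums in lesion libraries 2 to 4 and not in library 1. T cell genes summed to 66.2, 523, 464 and 1231 CPM in lesions 1 to 4 and 62.3 to 119.7 CPM in eutopic uterus, macrophage genes to 503, 15801, 6481 and 7807 CPM and 566 to 696 CPM, and B and plasma cell genes to 253, 8563, 7821 and 12767 CPM and 1615 to 3477 CPM. Library 4 held the highest T and B cell sums and library 2 the highest macrophage sum. The macrophage list shares Fabp4 and Lpl with the adipocyte list, whose sum was also highest in library 2. Of the macrophage genes given below, Adgre1 was highest in library 4, and Cd68 and Gpnmb in library 2. Lesion libraries 2 to 4 are also those that carried skeletal muscle transcripts and the higher adipocyte sums. The part of those tissues in the immune result was not tested.

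All 19 T cell genes tested rose, 8 of them in the 8 libraries, 19 in lesion libraries 3 and 4, and 1 in library 1 alone, where 7 fell. Cd3e (ENSMUSG00000032093.8), part of the T cell receptor complex, was at 1.65, 43.5, 29.8 and 74.3 CPM in lesion libraries 1 to 4 and at 3.72, 2.91, 3.49 and 6.86 CPM in eutopic libraries 1 to 4. Foxp3, the factor of regulatory T cells, was at 0.112, 11.9, 14.6 and 28.2 CPM in lesion libraries 1 to 4 and at 0.0578, 0.0208, 0.0386 and 0.195 CPM in eutopic libraries 1 to 4. Lesion library 1 was below every eutopic library for Cd3e and inside their range for Foxp3, and libraries 2 to 4 were above for both. Cd3e rose by 3.13 ± 0.71 on the log2 scale (edgeR adjusted p = 0.0017), with an adjusted p of 0.052 in the 8 libraries and 1.3e-05 without lesion library 1. Foxp3 rose by 7.38 ± 1.10 (edgeR adjusted p = 5.4e-05; 6.76 without lesion library 4 and 8.36 without eutopic library 4).

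Of 16 B and plasma cell genes 11 rose, 7 in the 8 libraries. Ms4a1 (CD20), a B cell surface protein, was at 1.24, 51.1, 17.8 and 39.9 CPM in lesion libraries 1 to 4 and at 0.116, 0.166, 0.0772 and 0.267 CPM in eutopic libraries 1 to 4, and even lesion library 1 was above every eutopic library. Its log2 fold change was 7.43 ± 0.88 (edgeR adjusted p = 7.0e-06; 0.0095 in the 8 libraries). Natural killer and cytotoxic genes, which are abundant in the pregnant uterus, gave 2 rises and 1 fall among 14, or 6 and 1 without lesion library 1. Their sum was 70.002, 175, 273 and 706 CPM in lesions 1 to 4 against 75.4 to 239 CPM, so that only libraries 3 and 4 exceeded eutopic uterus. Mast cell and eosinophil genes summed to 157, 280.5, 204 and 142 CPM, below the 436 to 529.7 CPM of eutopic uterus in every lesion, although only 1 of 12 fell and 1 rose. The gene that fell was Hdc, whose levels are given above and which made up most of the eutopic sum. The lower sum therefore describes Hdc more than the rest of the list.

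Of 24 macrophage genes 23 rose, 15 of 22 tested in the 8 libraries, and 4 fell in lesion library 1 alone. Adgre1, the surface protein F4/80, was at 17.1, 177, 138 and 239 CPM in lesion libraries 1 to 4 and at 27.2, 27.9, 25.7 and 39.5 CPM in eutopic libraries 1 to 4. Cd68, a lysosomal protein of macrophages, was at 14.5, 591, 243 and 309.5 CPM in lesion libraries 1 to 4 and at 15.7, 17.3, 13.6 and 25.9 CPM in eutopic libraries 1 to 4. Gpnmb, a glycoprotein of lipid-laden macrophages, was at 14.2, 5566, 1408 and 1557 CPM in lesion libraries 1 to 4 and at 10.4, 10.7, 8.86 and 18.98 CPM in eutopic libraries 1 to 4. Lesion library 1 lay below every eutopic library for Adgre1 and inside their range for Cd68 and Gpnmb, and libraries 2 to 4 stood above it for all 3. Gpnmb rose by 7.45 ± 1.03 on the log2 scale (edgeR adjusted p = 2.8e-05; 6.35 without lesion library 2), Cd68 by 3.998 ± 0.65 (adjusted p = 0.00011; 3.39 without lesion library 2) and Adgre1 by 2.25 ± 0.48 (adjusted p = 0.0011; 0.051 in the 8 libraries).

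Antigen presentation and interferon genes peaked in lesion library 4. MHC class II and dendritic cell genes summed to 428, 7879, 5185 and 19510.0 CPM in lesions 1 to 4 against 608 to 1228 CPM, and interferon response genes to 453, 1200.4, 1369.9 and 5017 CPM against 525 to 649 CPM. Of 16 MHC class II and dendritic cell genes 15 rose, 7 in the 8 libraries. Of 22 interferon response genes 15 rose, 4 in the 8 libraries, 20 without lesion library 1 and 9 without lesion library 4. Over all genes 25.1% rose without lesion library 1, and 4966 of 22667 without lesion library 4.

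H2-Aa (ENSMUSG00000036594.16), an alpha chain of MHC class II, was at 90.7, 1419, 1032 and 3459 CPM in lesion libraries 1 to 4 and at 164, 164, 119 and 257 CPM in eutopic libraries 1 to 4. H2-Eb1, a beta chain named after its values were seen, stood at 78.7, 1237, 905 and 3248 CPM in lesion libraries 1 to 4 and at 143, 136, 101 and 206 CPM in eutopic libraries 1 to 4. Lesion library 1 was below every eutopic library for both genes and libraries 2 to 4 were above. On the log2 scale the differences were 3.09 ± 0.60 (edgeR adjusted p = 0.00051; 2.27 without lesion library 4) and 3.22 ± 0.65 (adjusted p = 0.00067; 2.34 without lesion library 4). Ccr7, the receptor that guides dendritic and T cells to lymph nodes, was at 0.861, 16.9, 13.6 and 33.5 CPM in lesion libraries 1 to 4 and at 0.0964, 0.104, 0.212 and 0.355 CPM in eutopic libraries 1 to 4, without overlap, and rose by 6.37 ± 0.87 (edgeR adjusted p = 2.5e-05; 5.74 without lesion library 4).

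Stat2, a signal transducer of the type I interferon response, was at 72.4, 89.98, 111 and 261 CPM in lesion libraries 1 to 4 and at 45.7, 54.2, 42.05 and 53.8 CPM in eutopic libraries 1 to 4. Every lesion was above every eutopic library, library 1 by the least and library 4 by the most. Its log2 fold change was 1.45 ± 0.30 (edgeR adjusted p = 0.00079). Ifi202b, of a family that senses cytosolic DNA, was at 0.225, 0.652, 10.9 and 21.8 CPM in lesion libraries 1 to 4 and at 0.0385, 0.0415, 0.0193 and 0 CPM in eutopic libraries 1 to 4, above eutopic uterus in every lesion and near 0 in eutopic uterus. It was higher by 8.31 ± 1.18 (edgeR adjusted p = 3.4e-05, and 7.22 without lesion library 4), a value that depends on few eutopic counts. At 1 month, when eutopic uterus held far more of it (level given below), the log2 difference was 0.70. The large value at 3 months thus rests on the eutopic level near 0 as well as on the lesions.

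Because these 2 groups rose together in libraries 2 to 4, the promoters of their called genes were read for 3 short motifs in RefSeq windows of 300 bases (250 before to 50 after the gene start, build GRCm38.p6, searched on both strands). The motif ATTGG, the core bound by the NF-Y factor in MHC class II promoters, was in 8 of the 11 MHC class II and dendritic cell genes found in the table (66.7% of their 12 promoters), in 5 of the 12 interferon response genes found (40.0% of their 15 promoters), and in 37.4% of all 32851 promoters. The core of the interferon-stimulated response element, TTTC and TTTC with any 2 bases between them, was in 8 of 12 interferon response genes (Bst2, Gbp2, Gbp3, Ifih1, Ifit3, Oas3, Rsad2 and Stat2; 53.3% of their promoters), in 0 of the 11 MHC class II and dendritic cell genes (letters in this window only), and in 3.44% of all promoters. The motif CANNTG was in 10 genes of each group (83.3% and 66.7% of their promoters) and in 72.3% of all promoters. A match describes letters and shows neither a bound factor nor a cause.

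The windows around the matches in 5 of these genes show how the motifs sit, with the match in capitals and the sequence read 5′ to 3′ on the strand of the gene. They lie at chr17:34287837-34287901 on the minus strand for H2-Aa, chr17:34305778-34305842 on the plus strand for H2-Eb1, chr10:128270248-128270315 on the plus strand for Stat2, chr19:34583343-34583446 on the plus strand for Ifit3 and chr12:26456533-26456602 on the minus strand for Rsad2, all in GRCm38.p6. Each match starts before the gene start of RefSeq, and a match on the other strand in H2-Eb1 is left in lower case.
H2-Aa: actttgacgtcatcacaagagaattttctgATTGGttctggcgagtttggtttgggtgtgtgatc
H2-Eb1: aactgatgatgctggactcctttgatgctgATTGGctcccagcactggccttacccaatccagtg
Stat2: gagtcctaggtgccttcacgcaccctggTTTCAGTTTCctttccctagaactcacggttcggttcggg
Ifit3: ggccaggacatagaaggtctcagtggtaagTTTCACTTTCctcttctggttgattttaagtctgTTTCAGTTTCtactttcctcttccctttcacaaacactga
Rsad2: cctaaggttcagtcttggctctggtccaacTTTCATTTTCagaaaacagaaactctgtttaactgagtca
The H2-Aa and H2-Eb1 matches lie 48 and 59 bases before the start. The Stat2 and Rsad2 matches lie 222 and 120 bases before it, and Ifit3 has 2 matches, 156 and 122 bases before it.

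Chemokine and complement genes also rose. Of 22 chemokine genes 19 rose, 10 of 21 tested in the 8 libraries, with a median log2 fold change of 4.12. Cxcl13, which attracts B cells, was at 0.15, 209, 62.3 and 158 CPM in lesion libraries 1 to 4 and at 0.251, 0.353, 0.154 and 0.195 CPM in eutopic libraries 1 to 4, above eutopic uterus in lesion libraries 2 to 4 and below it in library 1. It rose by 8.81 ± 1.20 on the log2 scale (edgeR adjusted p = 2.5e-05). Cxcl1, which attracts neutrophils, was at 1.18, 3.4, 3.91 and 3.68 CPM in lesion libraries 1 to 4 and at 0.27, 0.56, 0.116 and 0.444 CPM in eutopic libraries 1 to 4, higher in every lesion, and rose by 3.12 ± 0.49 (edgeR adjusted p = 9.1e-05).

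Of 19 complement genes 14 rose, 7 in the 8 libraries. C7, a component of the membrane attack complex, was at 18.6, 36.8, 13.7 and 5.05 CPM in lesion libraries 1 to 4 and at 0.424, 0.685, 0.425 and 0.373 CPM in eutopic libraries 1 to 4. C2, of the classical pathway, was at 13.7, 14.4, 8.6 and 20.3 CPM in lesion libraries 1 to 4 and at 2.49, 2.35, 3.47 and 3.27 CPM in eutopic libraries 1 to 4. Clu, clusterin, an inhibitor of membrane attack, was at 883, 336, 724 and 511 CPM in lesion libraries 1 to 4 and at 111, 75.5, 76.8 and 66.5 CPM in eutopic libraries 1 to 4. All 3 were higher in every lesion, library 1 included. Their log2 fold changes were 5.28 ± 0.58 (edgeR adjusted p = 3.3e-06), 2.30 ± 0.27 (adjusted p = 6.2e-06) and 2.90 ± 0.40 (adjusted p = 3.0e-05), and each passed in the 8 libraries (largest adjusted p = 0.0059).

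Of 14 genes of the interleukin 1 and 6 axis 13 rose, 7 in the 8 libraries. Il33, an alarm cytokine released by damaged cells, was at 5.58, 136, 69.5 and 113 CPM in lesion libraries 1 to 4 and at 4.86, 7.54, 8.24 and 5.86 CPM in eutopic libraries 1 to 4, and Tgfb1, a cytokine of repair and fibrosis, at 55.8, 147, 96.02 and 166 CPM in lesion libraries 1 to 4 and at 30.7, 28.4, 28.8 and 32.9 CPM in eutopic libraries 1 to 4. Il33 overlapped only through lesion library 1, while Tgfb1 was higher in every lesion. The log2 fold changes were 3.61 ± 0.55 (edgeR adjusted p = 6.3e-05) and 1.94 ± 0.25 (adjusted p = 1.3e-05).

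Among 26 fibrosis and matrix genes there were 8 rises and 4 falls, against 23.4% and 17.1% of all genes, and 8 rises (9.44% over all genes) and none of the falls in the 8 libraries, and the median log2 fold change was 0.26. Thbs1, thrombospondin 1, which activates TGF-beta, was at 659, 418, 740.1 and 559.7 CPM in lesion libraries 1 to 4 and at 215, 169, 179.9 and 168 CPM in eutopic libraries 1 to 4. Every lesion was higher, with a log2 fold change of 1.70 ± 0.18 (edgeR adjusted p = 3.1e-06; 0.0049 in the 8 libraries). The number of falls was 1 without eutopic library 1, 2 without lesion library 4 and 7 without eutopic library 4. Over all genes these fits called 3640 of 22795, 3463 of 22667 and 3343 of 22776 lower.

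Fibrillar collagen did not rise. Col1a1, the main chain of type I collagen, was at 475, 2614, 2869 and 2327 CPM in lesion libraries 1 to 4 and at 7874, 3846, 3111 and 3091 CPM in eutopic libraries 1 to 4. Col3a1, of type III collagen and named after its values were seen, stood at 1072, 5169, 3249 and 2413 CPM in lesion libraries 1 to 4 and at 10010.0, 5102, 5171 and 4163 CPM in eutopic libraries 1 to 4. Lesion library 1 was lowest for both and eutopic library 1 highest. The respective log2 fold changes were -1.11 ± 0.39 (edgeR adjusted p = 0.028) and -1.04 ± 0.36 (adjusted p = 0.026). Neither passed in the 8 libraries (adjusted p = 0.21 and 0.19) or without eutopic library 1 (-0.70 for each gene, adjusted p = 0.15 and 0.12).

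Enzymes that cut matrix rose with one of their inhibitors. Of 21 matrix proteases and inhibitors 11 rose and 1 fell, 6 and 1 in the 8 libraries. Mmp12, macrophage elastase, was at 4.06, 4353, 707 and 849.6 CPM in lesion libraries 1 to 4 and at 0.0771, 0.104, 0.0386 and 0.533 CPM in eutopic libraries 1 to 4, and Mmp13, a collagenase, at 1.35, 26.3, 40.01 and 21.4 CPM in lesion libraries 1 to 4 and at 0.116, 0.0415, 0.154 and 0.124 CPM in eutopic libraries 1 to 4. Lesion library 2 held the most Mmp12, and lesion library 1 the least of both while still above eutopic uterus. Their log2 fold changes were 12.89 ± 1.67 (edgeR adjusted p = 1.5e-05; 11.38 without lesion library 2 and 14.26 without eutopic library 4) and 7.64 ± 0.94 (adjusted p = 1.0e-05).

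Plau, urokinase, was at 181, 114, 103 and 92.8 CPM in lesion libraries 1 to 4 and at 23.1, 29.4, 18.9 and 18.1 CPM in eutopic libraries 1 to 4, and Timp1, an inhibitor of matrix metalloproteinases, at 33.6, 50.1, 21.1 and 49.5 CPM in lesion libraries 1 to 4 and at 11.8, 14.2, 9.07 and 8.76 CPM in eutopic libraries 1 to 4. Both were higher in every lesion, Plau most in library 1. On the log2 scale the differences were 2.45 ± 0.28 (edgeR adjusted p = 4.7e-06) and 1.82 ± 0.25 (adjusted p = 2.3e-05).

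Smooth muscle, the wall of the uterus, was lower in lesions. Of 15 smooth muscle genes 9 fell and 2 rose. In the 8 libraries, however, 1 fell, near the 6.89% of all genes, and neither rise was called. Lesion libraries 3 and 4 gave 7 falls. Without lesion library 1 8 fell. Acta2, smooth muscle actin, was at 803, 243, 1870.1 and 1730.1 CPM in lesion libraries 1 to 4 and at 4532, 3033, 3794 and 2078 CPM in eutopic libraries 1 to 4, and Smtn, smoothelin of contractile cells, at 132, 92.6, 269 and 233 CPM in lesion libraries 1 to 4 and at 619, 516, 525 and 403 CPM in eutopic libraries 1 to 4. All lesions were lower, libraries 3 and 4 least so. The log2 fold changes were -1.53 ± 0.39 (edgeR adjusted p = 0.0043; 0.11 in the 8 libraries) and -1.50 ± 0.26 (adjusted p = 0.00019; 0.028).

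Of 16 blood vessel genes 4 rose and 4 fell, 1 and 2 in the 8 libraries, rises being near the share over all genes. Emcn, endomucin of veins and capillaries, was at 43.7, 24.5, 29.6 and 22.4 CPM in lesion libraries 1 to 4 and at 52.1, 66.04, 71.7 and 55.2 CPM in eutopic libraries 1 to 4, lower in every lesion, with a log2 fold change of -1.03 ± 0.20 (edgeR adjusted p = 0.00057; 0.024 in the 8 libraries). Of 7 lymphatic vessel genes 5 rose, 5 in the 8 libraries (4 in both), and 3 without lesion library 2, lesion library 4, eutopic library 2 or eutopic library 4. Over all genes those leave-out fits called 4681 of 22633, 4966 of 22667, 4503 of 22772 and 4621 of 22776 higher. Flt4, the receptor for lymphatic growth factor VEGF-C, was at 61.97, 67.1, 39.5 and 74.9 CPM in lesion libraries 1 to 4 and at 36.9, 29.5, 36.2 and 23.2 CPM in eutopic libraries 1 to 4, higher in every lesion, with a log2 fold change of 0.95 ± 0.23 (edgeR adjusted p = 0.0026; 0.03 in the 8 libraries).

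Of 14 Schwann cell and nerve genes 6 rose and 4 fell, 4 and 2 in the 8 libraries. Mbp, myelin basic protein, was at 77.5, 107, 65.99 and 79.8 CPM in lesion libraries 1 to 4 and at 17.3, 10.2, 15.3 and 15.03 CPM in eutopic libraries 1 to 4. It was higher in every lesion, with a log2 fold change of 2.51 ± 0.25 (edgeR adjusted p = 1.2e-06; 0.0031 in the 8 libraries), and opposite in direction to Gap43 above.

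Genes of iron handling and oxidative stress rose. Of 19 genes 12 rose and 1 fell, 9 rises and not the fall in the 8 libraries, and 6 were higher in each of the 6 fits. Hmox1 (ENSMUSG00000005413.9), which degrades heme, was at 74.6, 144, 187 and 131 CPM in lesion libraries 1 to 4 and at 14.1, 19.1, 12.7 and 14.002 CPM in eutopic libraries 1 to 4. Sod3, extracellular superoxide dismutase, was at 104, 128, 42.1 and 72.9 CPM in lesion libraries 1 to 4 and at 13.9, 10.01, 12.9 and 8.76 CPM in eutopic libraries 1 to 4. Neither overlapped, and lesion library 1 was not apart from the others. In log2 units they differed by 3.17 ± 0.29 (edgeR adjusted p = 6.6e-07) and 2.93 ± 0.29 (adjusted p = 1.6e-06), with 0.0032 and 0.0049 in the 8 libraries.

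Of 16 glycolysis and hypoxia genes tested 12 rose, 11 in the 8 libraries (Aldoa stands on 2 identifiers). Hk2, a hexokinase of muscle and dividing cells, was at 62.4, 171, 143 and 152 CPM in lesion libraries 1 to 4 and at 58.9, 45.2, 54.3 and 53.3 CPM in eutopic libraries 1 to 4. Bnip3, a mitochondrial protein induced by low oxygen, was at 79.2, 112, 72.1 and 42.5 CPM in lesion libraries 1 to 4 and at 23.7, 31.2, 26.9 and 27.3 CPM in eutopic libraries 1 to 4. Hk2 in lesion library 1 stood just above eutopic uterus, and libraries 2 to 4, which carry skeletal muscle transcripts, stood well above. The respective log2 fold changes were 1.32 ± 0.22 (edgeR adjusted p = 0.00013) and 1.49 ± 0.23 (adjusted p = 7.0e-05).

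Of 17 lipid and cholesterol synthesis genes 12 rose, 4 rose in the 8 libraries, and 13 rose in lesion library 1 alone. The summed level of the list was 8589, 4783, 2264 and 1583 CPM in lesions 1 to 4 against 1520.2 to 2130.0 CPM in eutopic uterus, highest in lesion library 1, which carried steroid synthesis transcripts. Lesion libraries 1 to 3 lay above the eutopic range and library 4 inside it.

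Proliferation genes were lower or level. Of 20 cell cycle genes 7 fell, and 1 fell in the 8 libraries, near the 6.89% of all genes. Without lesion library 2, which held the least of them, 2 fell, and without eutopic library 4, 4 fell. Over all genes 13.8% fell without lesion library 2, and 3343 of 22776 without eutopic library 4. Tyms, thymidylate synthase, was at 15.5, 8.55, 19.8 and 19.1 CPM in lesion libraries 1 to 4 and at 36.2, 40.1, 41.2 and 49.4 CPM in eutopic libraries 1 to 4, lower in every lesion, and changed by -1.41 ± 0.22 (edgeR adjusted p = 7.7e-05; 0.017 in the 8 libraries). Mki67, the Ki-67 antigen of dividing cells, was at 117, 50.7, 110.1 and 123 CPM in lesion libraries 1 to 4 and at 160.5, 116, 166 and 165 CPM in eutopic libraries 1 to 4, and its difference of -0.60 ± 0.29 did not pass (adjusted p = 0.11). Myc, a growth regulator induced early after stimulation, was at 48.5, 34.4, 48.7 and 36.1 CPM in lesion libraries 1 to 4 and at 92.9, 134, 125 and 145 CPM in eutopic libraries 1 to 4. It was lower in every lesion, with a log2 fold change of -1.57 ± 0.17 (edgeR adjusted p = 3.2e-06; 0.0049 in the 8 libraries).

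The largest rises were mostly genes of the tissues described at the start. All 21 skeletal muscle genes tested rose, and 13 of 15 tested in the 8 libraries. In lesion library 1 alone 1 rose and 4 fell. Ryr1, the calcium release channel of skeletal muscle, was at 72.5, 1849, 557 and 345 CPM in lesion libraries 1 to 4 and at 1.39, 1.49, 1.27 and 1.85 CPM in eutopic libraries 1 to 4, and Neb, nebulin of the thin filament, at 20.6, 2484, 743 and 371 CPM in lesion libraries 1 to 4 and at 3.53, 5.17, 5.68 and 5.81 CPM in eutopic libraries 1 to 4. Even lesion library 1 exceeded eutopic uterus for both. Ryr1 rose by 8.87 ± 1.03 on the log2 scale (edgeR adjusted p = 6.0e-06; 7.76 without lesion library 2) and Neb by 7.49 ± 1.09 (adjusted p = 4.3e-05; 6.23 without lesion library 2). The myosins Myh4 and Myh1 reached 12213 and 3971 CPM in lesion library 2 and at most 0.0208 and 0.0178 CPM in eutopic uterus.

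Steroid synthesis depended on library 1. Of 11 genes tested 10 rose, 4 in the 8 libraries and 5 without lesion library 1. Cyp11a1, the enzyme that starts steroid synthesis, was at 7557, 78.8, 2.03 and 2.73 CPM in lesion libraries 1 to 4 and at 0.347, 0.249, 0.212 and 0.124 CPM in eutopic libraries 1 to 4. Its log2 fold change of 12.99 ± 2.13 (edgeR adjusted p = 0.00012) became 6.88 without lesion library 1 (adjusted p = 1.4e-05), and lesion library 2 then held the most.

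How the 3-month difference stood beside that at 1 month was tested directly. At 1 month edgeR called 4607 of 22249 genes (20.7%), 2659 higher (12%) and 1948 lower (8.76%) in lesions. Of the genes called higher at 3 months 43.8% were also higher at 1 month, which is 85.7% of the 1-month calls; for lower genes the shares were 35.4% and 69.2%. The test of the change from 1 to 3 months called 171 genes (0.769%), 101 with a higher (0.454%) and 70 with a lower difference (0.315%) at 3 months.

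That count rested on single libraries. Of 3-month lesions, leaving out library 1 gave 901 genes, library 2 gave 55, library 3 gave 990 and library 4 gave 448. Without eutopic library 1, 2, 3 or 4 at 3 months it was 33, 33, 22 or 17. Without lesion library 1, 2, 3 or 4 at 1 month it was 14, 390, 16 or 69, and without eutopic library 1, 2, 3 or 4 at 1 month it was 69, 19, 25 or 25. DESeq2 called 510 higher and 312 lower. Age also differs between these times, since surgery was at one age.

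**Figure D5:**
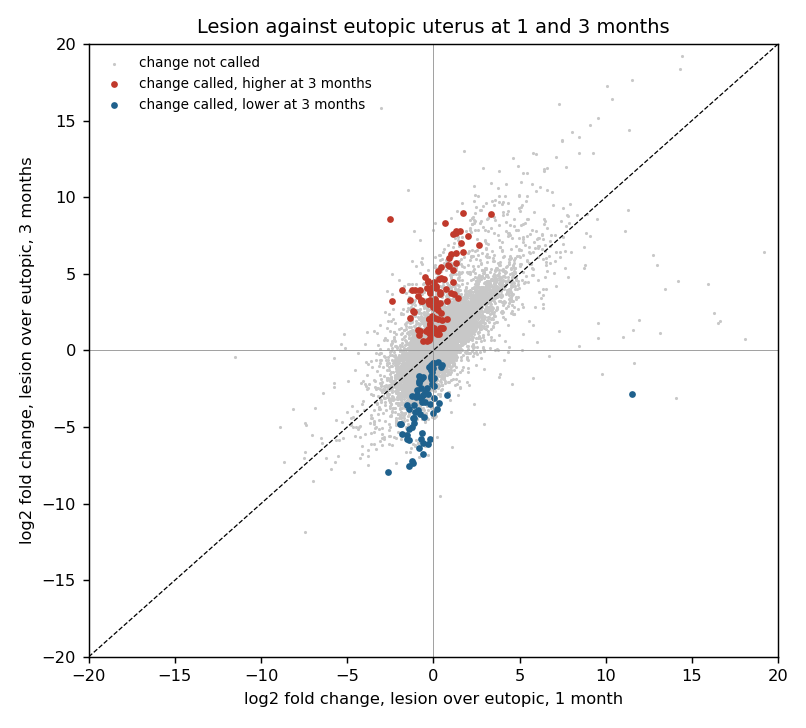
Fitted log2 fold change of lesions over eutopic uterus at 3 months (vertical) against 1 month (horizontal) for 22249 genes, grey where the change was not called, with the 101 genes called for a higher and the 70 for a lower difference at 3 months coloured. The dashed line marks equal values, and called genes lie off it on either side.

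Among genes whose change was called, several were further below eutopic uterus at 3 months than at 1 month. Nptx1 differed by -1.88 ± 0.29 at 1 month and -4.80 at 3 months, a change of -2.92 ± 0.41 (edgeR adjusted p = 0.0052). Gper1 went from -0.38 to -2.47 (change -2.08 ± 0.46; adjusted p = 0.039), and Pla2g10 from -1.40 to -7.55 (change -6.15 ± 1.18; adjusted p = 0.029). Hdc went from -0.61 to -2.93 (change -2.32 ± 0.52; adjusted p = 0.039), and Slc5a11 from -0.59 to -6.06 (change -5.47 ± 0.98; adjusted p = 0.021). Slc51a, a subunit of an organic solute transporter, went from -0.32 to -6.14, and Ano2 from -0.19 to -5.78 (adjusted p = 0.037 and 0.034).

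In the other direction, Grem1 went from 2.63 to 6.91 (change 4.27 ± 0.89; edgeR adjusted p = 0.033) and Lrrc2, a leucine-rich repeat protein, from 1.00 to 6.30 (change 5.30 ± 0.74; adjusted p = 0.0052). Bnip3 went from -0.11 to 1.49 (adjusted p = 0.033), and Ifi202b from 0.70 to 8.31 (adjusted p = 0.022), a gene whose level in eutopic uterus itself differed between the times and at 1 month was 11.2 ± 0.708 CPM (SD, n = 4). Many of the 101 genes called for a higher difference were muscle genes. Among them, Ryr1 changed by 5.54 ± 1.14 and Neb by 5.46 ± 1.25. Eno3, Pygm, Pfkm, Hrc and Tnnc1 were also called, each lowest in lesion library 1 and highest in library 2. Skeletal muscle genes summed to 146 to 2046 CPM in lesions at 1 month, and the part of muscle content in the number of calls was not tested.

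The genes of the progesterone axis named next did not pass this test. Pgr differed by 0.00 ± 0.57 at 1 month (edgeR adjusted p = 1), where lesions held 185 ± 37.5 CPM and eutopic uterus 185 ± 61.5 CPM (SD, n = 4 each), and the change to 3 months was -1.85 ± 0.82 (adjusted p = 0.29). For Hand2 the change was -2.02 ± 0.68 (adjusted p = 0.16), for Esr1 -1.18 ± 0.37 (0.13), for Hoxa10 -1.80 ± 1.07 (0.47), and for Foxa2, which stood at -2.79 at 1 month, -0.58 ± 0.91 (0.86). At 1 month 5 of 24 progesterone genes fell with a median log2 fold change of -0.56. At 1 month 19 of 19 T cell, 18 of 24 macrophage and 15 of 16 MHC class II and dendritic cell genes rose, but 2 of 14 natural killer and cytotoxic and 1 of 12 mast cell and eosinophil genes, beside 12% of all genes. Cyp3a59 stood at -7.45 at 1 month (adjusted p = 4.2e-05), and Wnt4 higher by 3.07 (adjusted p = 0.0022).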

How the data were processed

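The authors deposited read counts per gene, whole numbers in 1 column a library for 56691 genes. Per the submitters' processing notes, bcl2fastq 1.9.0, STAR 2.7.9a, edgeR and genome build mm39 were used; which annotation release, strand and counting rule were used is not given in the sources used here, which leaves overlapping, antisense and closely similar genes uncertain. RNA came from an RNeasy kit, per the labels' protocols.

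The tests ran in edgeR 4.0.16 under R 4.3.3 (filterByExpr, TMM, quasi-likelihood F-test, 6 group means over 24 libraries, Benjamini-Hochberg adjustment over 22249 genes, called under 0.05). The standard error is the log2 fold change divided by the root of F. CPM values carry counting error beside the spread between libraries. The procedure was tested on simulated data.

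Alternatives were DESeq2 1.42.0, its size factors in edgeR, no filter, limma 3.58.1 voom with sample weights, scaling without genes of other organs, only the 8 compared libraries, a replicate block, each library left out, lesion libraries 3 and 4 only, and lesion library 1 only.

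Genes were named by rule: a panel of 10 uterine genes, the 8 largest rises and falls and the 8 widest gaps each way among called protein-coding genes without overlap and with mean log2 CPM of at least 1, from each of 42 lists the first 2 members and at most 4 called ones, 6 genes most particular to each lesion library, and the 4 largest changes each way from 1 to 3 months. Others are said to be chosen after their values were seen, and some genes the rule chose are not reported here. The groups compared, the lists and the tests were chosen with earlier results of these data known. Promoter sequences are from RefSeq, build GRCm38.p6, which differs from the build of the files, so no coordinate of the files is used.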

Additional observations from a re-analysis of the deposited data

Results flagged for a closer look

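Single libraries stood apart from the other 3 of their group by Dixon's gap test, which chance meets in about 1 of 20 groups. The test was run in lesions and in eutopic uterus for each of 86 named genes and 42 list sums. A part of the flags below is therefore expected by chance, and which ones is not known. Lesion library 1 was high for Bmp2 (42.2 CPM), Cyp11a1 (7557 CPM), Fkbp5 (1066 CPM) and Wnt4 (129 CPM). It was also high for the summed genes of uterine glands (3731 CPM), ciliated cells (246 CPM), Wnt antagonists and signalling (2015 CPM), steroid synthesis (30582 CPM) and ovarian granulosa cells and oocytes (2951 CPM). Lesion library 2 was high for red blood cell genes (355 CPM) and Cyp3a genes (0.466 CPM) and low for cell cycle genes (397 CPM).

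Lesion library 3 was high for Ano2 (0.755 CPM), Sbspon (4.45 CPM) and Slc5a11 (1.47 CPM). Lesion library 4 was high for Grem1 (95.0 CPM) and low for Hpgd (14.1 CPM). In eutopic uterus library 4 was high for Adgre1 (39.5 CPM), F10 (0.586 CPM), Mmp12 (0.533 CPM) and summed B and plasma cell genes (3477 CPM). Eutopic library 1 was high for Angptl1 (0.540 CPM) and Col1a1 (7874 CPM), library 2 was high for C7 (0.685 CPM) and low for Mki67 (115.5 CPM) and Slc51a (7.83 CPM), and library 3 was low for Hsd11b2 (197 CPM).

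The difference between lesion and eutopic uterus changed from 1 to 3 months in edgeR's test of the change itself for 18 named genes. On the log2 scale the change was -5.59 for Ano2, -2.92 for Gap43, -2.08 for Gper1, -2.32 for Hdc, -2.92 for Nptx1, -6.15 for Pla2g10, -3.81 for Pllp, -3.69 for Sbspon, -5.82 for Slc51a, -5.47 for Slc5a11, -3.64 for Slco4c1 and -1.32 for Tyms. It was 1.60 for Bnip3, 4.27 for Grem1, 7.61 for Ifi202b, 5.30 for Lrrc2, 5.46 for Neb and 5.54 for Ryr1. Every lesion library at 3 months lay outside the eutopic range in the named direction for all 18 genes. Several of them were chosen because the groups did not overlap, so this is a description and no further evidence of a change. Over all genes, 9.65% were called higher and 12.5% lower without overlap. Bnip3, Neb and Ryr1 are also expressed in skeletal muscle, whose transcripts differ between the lesion libraries, and its part in these values was not tested.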

How the results depend on the processing

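At 3 months DESeq2 called 5767 genes higher and 3958 lower, near the 5202 and 3811 of edgeR with all libraries. The 8 compared libraries alone gave 1889 and 1378. The replicate number used as a block in these same 8 libraries gave 306 and 302 of 20005 genes, to be read beside 1889 and 1378. Same-numbered lesion and eutopic libraries correlated in their deviations by 0.116, 0.0994, 0.00343 and 0.337 at 3 months. At 1 month the values were 0.191, 0.107, 0.179 and 0.0735. Of the lesion libraries, 3 of 4 at 3 months and 4 of 4 at 1 month correlated best with their own number. This is a hint of pairing from the data only. The labels do not pair the libraries, so whether a number marks one mouse is not known. The fits without the block treat the libraries as independent. At 1 month the block gave 3729 higher and 3105 lower. At 1 month voom gave 5228 higher and 4785 lower. For the change from 1 to 3 months DESeq2 gave 510 and 312, voom 346 and 122, and no filter 45 lower.

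With each library left out, the calls ran from 4503 to 5708 higher and 3127 to 5154 lower at 3 months, from 1489 to 2495 and 1068 to 2210 at 1 month, and from 7 to 560 and 6 to 508 for the change.

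Of 86 named genes, 75 kept direction and side of the threshold in the 8 libraries and 11 lost the call; 43 lost it under the block. Direction turned for Lif with voom (0.48) and with lesion libraries 3 and 4 only (0.031), and for Krt8 in the latter (0.053). With lesion library 1 only it turned for Adgre1 (-0.84), Cd3e (-1.39), Cd68 (-0.34), Cxcl13 (-0.68), H2-Aa (-0.98), H2-Eb1 (-0.93), Il33 (-0.28) and Ltf (-1.57). These fits hold fewer lesion samples. Depth was similar in both groups, so low counts limit only genes near 0 CPM, such as Cyp3a59 and Ifi202b.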

Other observations

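Each lesion library had genes of its own, named by how far it exceeded the other 7 libraries and given without a test. Lesion library 1 held the luteinizing hormone receptor Lhcgr at 2142 CPM, against 18.8 CPM in the next library, and the steroid enzyme Hsd3b1 at 6113 CPM against 60.0 CPM. Esr2, estrogen receptor beta, was at 83.3 CPM in it and at most 0.815 CPM elsewhere. Lesion library 2 held Mybph, a myosin-binding protein, at 113 CPM against 12.95 CPM.

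Lesion library 3 held arginase (Arg1) at 494 CPM, against 36.4 CPM in the next library. Chil1, a chitinase-like protein of macrophages and neutrophils, was at 78.4 CPM in it against 7.99 CPM, and the collagenase Mmp8 at 42.2 CPM against 9.15 CPM. Lesion library 4 held interferon-gamma (Ifng) at 13.1 CPM against 1.26 CPM, and genes known to respond to it: Cxcl9 at 1120 CPM against 136 CPM, Ido1, which degrades tryptophan, at 81.2 CPM against 2.82 CPM, and Gbp2b at 151 CPM against 12.4 CPM. The 2 lesion libraries most alike across all genes thus differed in these immune genes.

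Ovarian transcripts were also present in lesion library 2 at a low, even share. For 11 genes at 100 CPM or more in lesion library 1 and under 1 CPM in every eutopic library, the level in lesion library 2 was a median 1.17% of that in library 1, with quartiles of 1.06% and 1.78%. The medians were 0.141% in lesion library 3 and 0.124% in lesion library 4. Whether this comes from ovarian tissue in library 2 or from reads exchanged between libraries was not tested.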
